A study of Sus scrofa with 8 samples.

Results

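Growth hormone and insulin-like growth factor (IGF) axis mRNAs were examined in the livers of 2 young sows (180 days) and 2 old sows (8 years), all healthy Yanan pigs, an indigenous Chinese breed. Each liver gave 1 RNA-seq library, so every library is a separate animal, and the labels give no treatment. According to the study, the young sows had never farrowed, whereas the old sows had been bred for years and were culled once they no longer produced well, so age and reproductive history cannot be told apart. All animals went without feed on the night before slaughter, and none were close relatives. The axis was taken as 10 named genes, matched by Ensembl pig identifier and symbol to the mRNA table of 21607 identifiers. There were 6 of the 10 in the table, namely GHR, STAT5B, IGF1, IGF1R, IGFALS and IGFBP1, while IGF2, IGFBP2, IGFBP3 and SOCS2 could not be matched to an identifier there and were not analysed here. Liver was taken whole, so fewer cells of a type and less RNA per cell cannot be told apart.

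Growth hormone from the pituitary acts on hepatocytes through its receptor GHR, whose partner kinase JAK2 activates the transcription factor STAT5B. STAT5B drives transcription of IGF1, the circulating growth factor made mainly by the liver, and of IGFALS, the acid-labile subunit that holds IGF1 in a long-lived complex with a binding protein in blood. IGFBP1 is a hepatic binding protein that insulin represses, so its mRNA rises in fasting, and IGF1R, the receptor of IGF1, is known to be scarce in mature hepatocytes.

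The values are CPM, read counts scaled to a common library size. They carry no correction for gene length, so the levels of different genes are not compared with each other. The recovered reads on mRNAs numbered 37555696 and 37125093 in young sows and 22482241 and 24866406 in old replicates 1 and 2. One library stood apart. The 9 interferon-stimulated genes measured of a list of 13 summed to 1698 CPM in old replicate 1, against 38.3 in old replicate 2 and 41.4 and 54.1 in young sows. All 11 hepatocyte markers were present, and their sum was 49070 and 56084 CPM in young sows and 34840 and 42293 in old sows. Albumin (ALB) made up the largest part of that sum, at 29468 and 35205 CPM in young sows and 16534 and 23978 in old sows. Only 2 of the 11 markers, ALB and CPS1, were lower in both old livers, and the median log2(CPM + 1) over the list was 10.06 and 10.18 in young sows and 10.70 and 9.81 in old replicates 1 and 2, so it was highest in old replicate 1. Markers of other cells were detected as well. The macrophage markers (4 of 6 measured) summed to 50.9 and 50.1 CPM in young sows and 85.0 and 133.7 in old sows, and the T and NK cell markers (4 of 6) to 5.49 and 7.22 against 16.4 and 9.29. The endothelial markers (3 of 7) summed to 30.0 and 26.8 against 62.6 and 31.5, though KDR among them was lowest in old replicate 1 (2.26 CPM, against 9.87 to 10.6 in the other livers). The stellate cell and fibroblast markers (6 of 8) summed to 17.5 and 36.5 against 12.9 and 48.3, and the cholangiocyte markers (3 of 5) to at most 1.27 in any library. The B and plasma cell markers (2 of 4) summed to 1.21 and 1.93 in young sows against 0.959 and 0.321 in old sows. The erythroid markers (2 of 4) summed to 621.3 and 429.0 against 305.8 and 404.7. The single skeletal muscle marker measured of 6 was at most 0.863. No measured marker was at 0 in every library.

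Old and young livers were compared to ask whether the hepatic growth hormone and IGF axis differed with age. IGFALS was the only member whose level in both old livers lay above both young livers. IGF1 was higher in a single old liver, IGFBP1 differed more between animals of the same age than between ages, GHR was lower in a single old liver, and STAT5B differed by at most 1.43-fold between any of the livers. In the limma test across 16898 mRNAs, none of the 6 members passed the thresholds (adjusted p-value under 0.05 and a log2 fold change beyond 1 in either direction), and 0.00% of all mRNAs tested did. With the p-value left unadjusted, 1 member was under 0.05, IGFALS, higher in old sows, where 6.78% of all mRNAs tested were higher and 8.93% lower. On the recovered reads, edgeR called 0 members in its exact test (3.16% of all mRNAs) and 0 in its quasi-likelihood test (0.00%). The Wald test of DESeq2 called 1, again IGFALS, among 5.65% of the 15587 mRNAs with an adjusted p-value (4.38% higher and 1.26% lower in old sows). The median log2 fold change of the 6 members was 0.49, beside -0.02 over all mRNAs tested. It moved with single libraries, to 0.15 without old replicate 1, -0.11 without old replicate 2, 0.04 without young replicate 1 and 0.39 without young replicate 2.

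**Figure D1:**
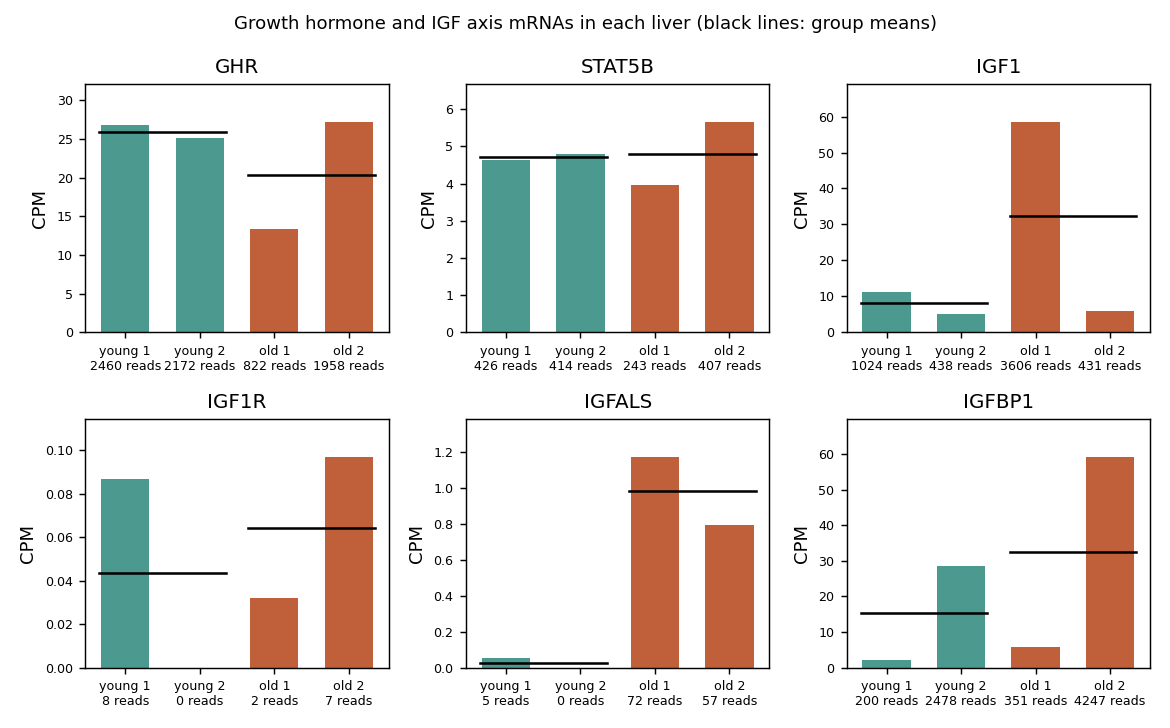
CPM of the 6 measured members in each liver (bars start at 0, 1 bar per library, green for young and orange for old), with the recovered reads under each bar and the group means of 2 libraries as black lines. IGFALS is near 0 in each young liver and reaches 1.17 and 0.794 in old sows, IGF1 stands out at 58.6 in old replicate 1, and IGFBP1 is high in young replicate 2 and old replicate 2.

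GHR, the receptor through which growth hormone reaches the hepatocyte, was at 26.8 and 25.1 CPM in young replicates 1 and 2 and at 13.4 and 27.3 in old replicates 1 and 2 (2460, 2172, 822 and 1958 reads). A single library was low, old replicate 1, and the age groups overlapped because old replicate 2 was the highest of the 4. The log2 fold change, fitted here and below on log2(CPM + 1) as old minus young, was -0.42 (standard error 0.40, 95% interval -1.63 to 0.79, adjusted p = 0.683, limma), and it was 0.07 without old replicate 1 and -0.91 without old replicate 2. The next library exceeded old replicate 1 by 1.88-fold. Of the 9798 mRNAs with a mean of at least 1 CPM, 31.7% were lowest in old replicate 1 and 6.16% by at least that ratio. Old replicate 1 also had the highest interferon-stimulated sum. Its hepatocyte marker sum was the lowest of the 4 while the median of the same list was the highest. The part of these in the level of GHR was not tested.

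STAT5B, the transcription factor below GHR, varied least among the members above 1 CPM. Its levels were 4.64 and 4.78 CPM in young sows and 3.95 and 5.67 in old sows (426, 414, 243 and 407 reads), so the young livers lay between the old ones. The difference between age groups was 0.01 on the log2 scale (standard error 0.20, 95% interval -0.60 to 0.62, adjusted p = 0.989, limma). From the lowest to the highest library the ratio was 1.43.

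STAT5A, its close relative and next neighbour on the chromosome in the RefSeq annotation of Sscrofa11.1, showed another pattern. STAT5A was at 1.94 and 1.61 CPM in young sows and at 3.79 and 4.83 in old sows (178, 139, 233 and 347 reads), and the lowest old value was 1.95 times the highest young value. The log2 fold change came to 0.93 (standard error 0.17, unadjusted p = 0.00928, adjusted p = 0.225, limma). Of the reads on both genes, STAT5A took 29.5% and 25.1% in young sows and 48.9% and 46.0% in old sows. These are near-identical copies, so how the authors' counting divided shared reads between them is uncertain.

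IGF1 was at 11.1 and 5.06 CPM in young sows, at 58.6 in old replicate 1 and at 6.0 in old replicate 2 (1024, 438, 3606 and 431 reads). Old replicate 2 lay between the young livers, and old replicate 1 was 5.26-fold above the next library and 9.77-fold above the other old liver. The age groups overlapped. The mean was 3.99-fold higher in old sows, and the log2 fold change came to 1.25 (standard error 1.28, 95% interval -2.63 to 5.13, adjusted p = 0.706, limma). Without old replicate 1 the log2 fold change was -0.29, so the direction of the mean rested on that library. Leaving out old replicate 2 gave 2.80, leaving out young replicate 1 gave 1.75, and leaving out young replicate 2 gave 0.75.

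The sum of the interferon-stimulated genes was highest in the same library as IGF1. Among the 9798 mRNAs with a mean of at least 1 CPM, 23.3% were highest in old replicate 1, and 1.33% exceeded the next library by at least the ratio seen for IGF1. The summed T and NK cell markers were also highest there, as were PECAM1 and LYVE1 of the 3 endothelial markers, while the remaining one, KDR, was lowest there. Whether any of these had a part in the IGF1 level was not tested. By Pearson's r of log2(CPM + 1) over the 4 libraries, the profiles most like that of IGF1 among 6101 mRNAs with a symbol were those of BCL6B (r = 0.9998), SEC23B (0.9996), RRP36 (0.9993), ETV3 (0.9993) and CD247 (0.9992). BCL6B, a transcriptional repressor, was at 2.72, 1.29, 11.5 and 1.54 CPM in young replicates 1 and 2 and old replicates 1 and 2. With 4 points, of which 1 lies far out, such coefficients say little beyond that these mRNAs were also highest in old replicate 1 and next highest in young replicate 1.

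**Figure D2:**
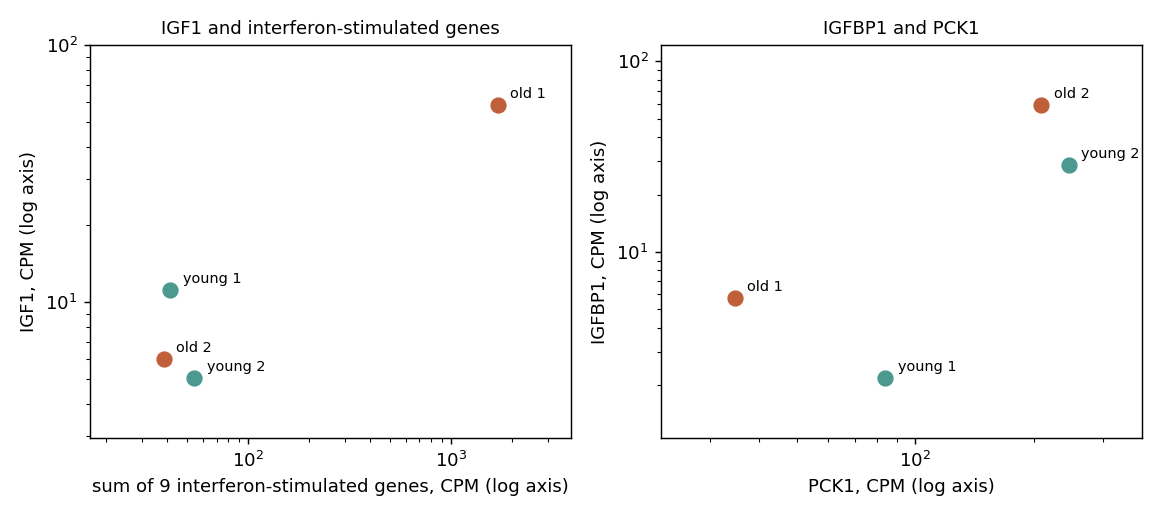
Left, IGF1 against the sum of 9 interferon-stimulated genes, and right, IGFBP1 against PCK1, all in CPM on log axes with 1 point per liver (green young, orange old). Old replicate 1 lies alone at 58.6 CPM of IGF1 and 1698 CPM of the interferon-stimulated genes, and young replicate 2 and old replicate 2 hold the higher values of both IGFBP1 and PCK1.

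IGF1R, the receptor of IGF1, was hardly detected. Its levels were 0.087 and 0 CPM in young replicates 1 and 2 and 0.032 and 0.097 in old replicates 1 and 2, which rest on 8, 0, 2 and 7 reads. Young replicate 2 and old replicate 1 held at most the 3 reads taken as the limit of detection. The exact 95% Poisson intervals reached from 0.0376 to 0.172 CPM and up to 0.0426 in the young sows, and from 0.00394 to 0.117 and from 0.0392 to 0.201 in the old sows. Such intervals cover counting error alone. A difference between the age groups was not detectable at this depth (log2 fold change 0.03, standard error 0.12, adjusted p = 0.943, limma).

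IGFALS was listed at 0.054 and 0 CPM in young replicates 1 and 2 and at 1.17 and 0.794 in old replicates 1 and 2, from 5, 0, 72 and 57 reads. Both old livers were above both young livers, an order that 24.4% of all mRNAs tested showed. The exact 95% Poisson intervals were 0.0177 to 0.127 CPM and 0 to 0.0426 CPM in young sows, 0.915 to 1.47 in old replicate 1 and 0.601 to 1.03 in old replicate 2, so neither old interval met a young one. Over the pooled reads of each age the ratio was 34.5, with an exact interval from 14.4 to 108.1 that covers counting error and not the spread between animals.

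On log2(CPM + 1), where the change of so low a gene is understated, IGFALS had a log2 fold change of 0.94 (standard error 0.15, unadjusted p = 0.00689, adjusted p = 0.216, limma). With 1 library left out it lay between 0.81 and 1.08. With log2(CPM + 0.1) the fold change came to 3.10 (adjusted p = 0.192, limma). The exact test of edgeR gave 5.30 with an adjusted p-value of 0.0589, the quasi-likelihood test 5.30 with 0.286, and the Wald test of DESeq2 5.37 with 0.0129. These fitted values depend on how few reads the young libraries hold. The sums of the macrophage and of the T and NK cell markers were likewise higher in both old livers than in both young ones, with 3 of 4 markers of each list in that order. The endothelial sum was so too, with 1 of 3 markers in that order. The sums of the B and plasma cell and of the erythroid markers were lower in both old livers. The hepatocyte marker sum was lower in both old livers, but 2 of 11 of its markers were, and its median was not. The old libraries also listed more mRNAs above 0, at 17262 and 16978 against 15230 and 14291 in young sows, from fewer reads. The part of any of these in the IGFALS level was not tested.

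IGFBP1, the insulin-repressed carrier of IGF1, spanned the widest range of the members with reads in every library above the limit of detection. It was at 2.18 CPM in young replicate 1 and 28.6 in the other young liver, and at 5.70 in old replicate 1 and 59.1 in the other old liver (200, 2478, 351 and 4247 reads). The high and the low values were split within each age, by 13.1-fold between the young livers and by 10.4-fold between the old livers. The mean was 2.10-fold higher in old sows, but the log2 fold change of 1.05 had a standard error of 1.77 and a 95% interval from -4.34 to 6.44 (adjusted p = 0.828, limma). Its direction turned when old replicate 2 (-0.53) or young replicate 1 (-0.56) was left out, and it was 2.63 without old replicate 1 and 2.66 without young replicate 2.

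The order of libraries for IGFBP1, with young replicate 2 and old replicate 2 above both others, occurred in 11.9% of the mRNAs with a mean of at least 1 CPM, and 0.153% (15 mRNAs) had as large a gap, 5.02-fold. PCK1, which encodes the gluconeogenic enzyme phosphoenolpyruvate carboxykinase and is also repressed by insulin, was named after its values were seen. It was at 83.9 and 245.5 CPM in young sows and at 34.6 and 209.5 in old sows, so the same livers held the higher values. PCK1 was highest in young replicate 2 and lowest in old replicate 1, whereas IGFBP1 was highest in old replicate 2 and lowest in young replicate 1. Of the 11 hepatocyte markers, which include PCK1, APOA2, TTR and TF were split likewise. The others were not, among them TAT, at 141.8 and 91.4 CPM in young sows and 52.9 and 124.8 in old sows. The stellate cell and fibroblast marker sum was highest in those livers too. The part of PCK1 or of the stellate cell markers in the level of IGFBP1 was not tested.

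**Figure D3:**
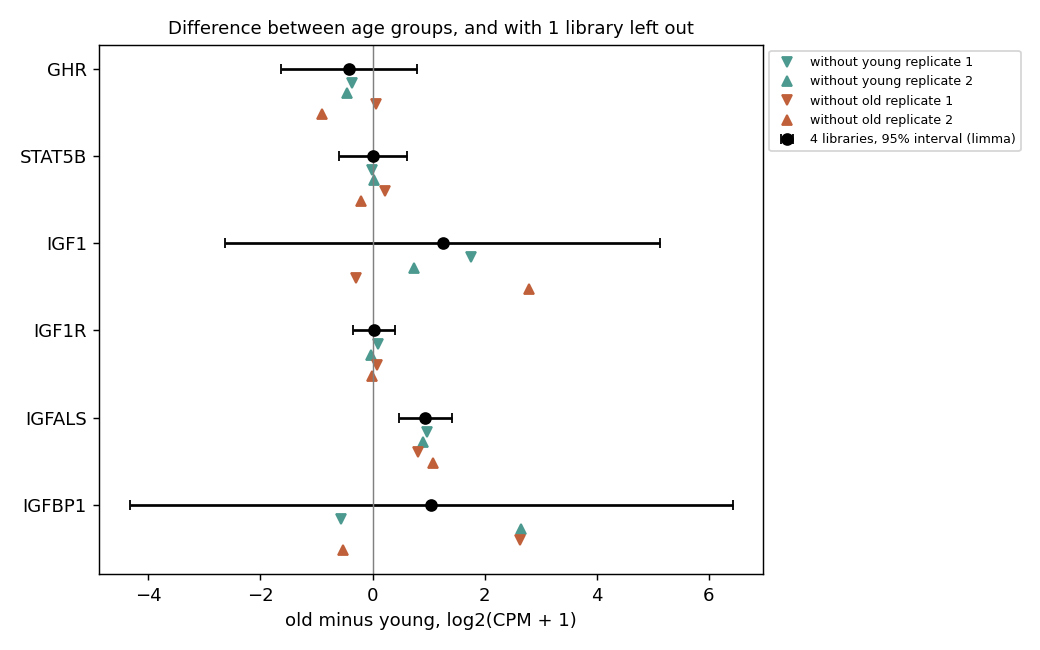
Old minus young on log2(CPM + 1) for each member, with the 95% interval of limma from all 4 libraries (black) and the value with 1 library left out (triangles). Only the IGFALS interval (0.47 to 1.41) lies to one side of 0, and IGF1 runs from -0.29 to 2.80 and IGFBP1 from -0.56 to 2.66 with the library that is left out.

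The balance between members within a library was compared next, since it does not depend on how libraries are scaled apart from the pseudocount. The difference of log2(CPM + 1) between IGF1 and IGFBP1 was 1.93 and -2.29 in young sows and 3.15 and -3.10 in old replicates 1 and 2. Young replicate 1 and old replicate 1 held the higher values, and the ages overlapped. The difference between IGF1 and GHR was -1.19 and -2.11 in young sows and 2.05 and -2.01 in old sows, highest in old replicate 1. As gene length is not corrected for, the sign of a difference is not read, only its change between libraries. Both ages gave nearly equal means for the first ratio (-0.18 and 0.02). By the two-sided exact permutation test, p was 1 for the first and 0.667 for the second (adjusted p = 1 for both), and the smallest p that 2 against 2 livers allow is 0.333.

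Other genes of the axis were counted from 4 lists of 53 genes, of which 42 had an identifier and 39 were tested. There were 13 higher and 7 lower in both old livers than in both young livers, where 24.4% and 25.0% of all mRNAs tested were so. Of the 13, IGFBPL1 and PLAGL1 held at most 3 reads in any library, the limit of detection. In the limma test 0 of the 39 were called (0.00% of all mRNAs), and no adjusted p-value was below 0.225. With an unadjusted p-value under 0.05, 5 were higher and 2 lower, where 6.78% and 8.93% of all mRNAs were so. The exact test of edgeR called 0 (3.16% of all mRNAs) and the quasi-likelihood test 0 (0.00%). The Wald test of DESeq2 called 1, GRB14, lower in old sows, where it called 5.65% of all mRNAs in either direction and 1.26% as lower, so a single call is no result about the lists. The median log2 fold change was 0.06, beside -0.02 for all mRNAs.

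In the list of GH receptor signalling, 14 of 18 genes were measured. There were 6 higher and 3 lower in both old livers, beside 24.4% and 25.0% of all mRNAs tested. The list median log2 fold change was 0.22, beside -0.02 over all mRNAs. None of the 14 was called in any of the 4 tests, so these counts are not read as a result about the list. JAK2, the kinase bound to GHR, was at 1.47 and 1.59 CPM in young sows and 2.15 and 0.919 in old sows, which overlapped. PTPN1, a phosphatase known to act on JAK2 and on the insulin receptor, was at 4.13 and 1.04 in young sows and 9.28 and 7.82 in old sows, and the fitted difference came to 1.56 on the log2 scale (standard error 0.54, adjusted p = 0.333, limma). PTPN2, a related phosphatase, had the opposite order, with 4.50 and 9.09 in young sows and 3.51 and 2.66 in old sows (-0.87, standard error 0.38, adjusted p = 0.404, limma). LEPROT, which is known to lower the amount of GHR at the cell surface, was at 8.28 and 9.77 in young sows and 6.45 and 7.28 in old sows (-0.35, standard error 0.15, adjusted p = 0.401, limma). SOCS1, a feedback inhibitor of JAK kinases, had few reads, at 0.152 and 0 CPM in young sows and 0.374 and 0.237 in old sows.

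All 10 genes of the list of other IGF carriers, their proteases and protease inhibitors had an identifier and were tested. There were 3 higher and 1 lower in both old livers, beside 24.4% and 25.0% of all mRNAs tested. The list median was 0.03, beside -0.02 over all mRNAs. Of the 3 higher, IGFBPL1 had 0 reads in each young liver and 1 in each old liver, which is within the limit of detection. IGFBP4, a carrier that the liver secretes, was at 56.1 and 48.3 CPM in young sows and 116.1 and 83.9 in old sows (5153, 4183, 7144 and 6027 reads). Its old and young values did not overlap, and its log2 fold change came to 0.91 (standard error 0.23, unadjusted p = 0.0236, adjusted p = 0.260, limma). IGFBP7, a matrix-associated relative, was at 12.1 and 17.7 in young sows and 6.05 and 9.83 in old sows (-0.84, standard error 0.33, adjusted p = 0.375, limma). IGFBP6 was low throughout, with 0 and 4 reads in young sows and 17 and 31 in old sows. IGFBP5 overlapped, with 0.719 and 1.56 CPM in young sows and 0.260 and 2.39 in old sows. PAPPA, the protease that cleaves IGFBP4, had at most 11 reads in any library.

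**Figure D4:**
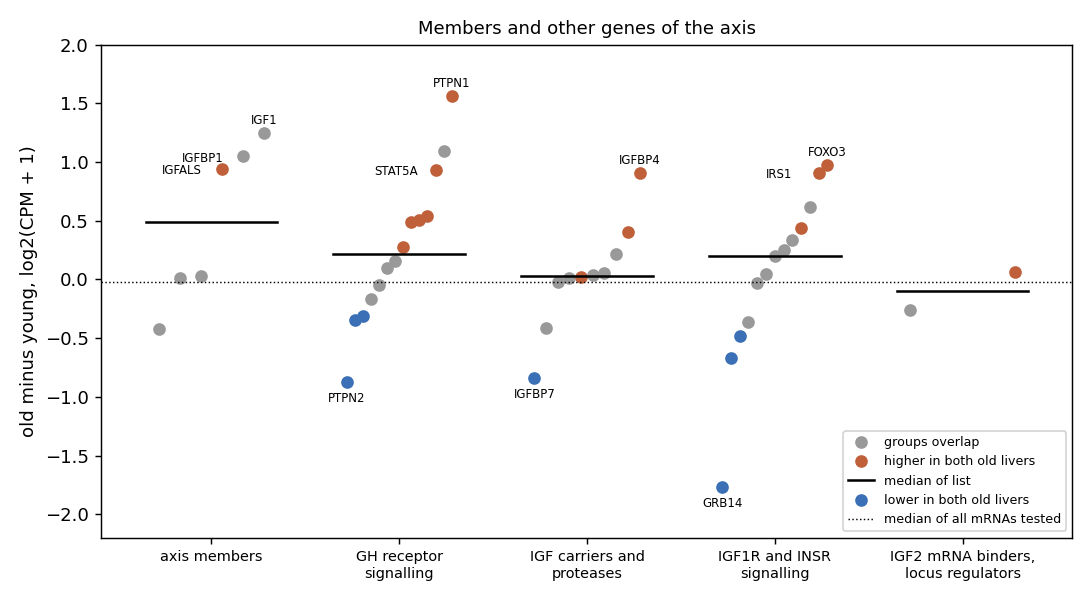
Old minus young on log2(CPM + 1) for the 6 members and the 39 other genes of the axis tested, 1 point per gene, grouped by list, with the list median (black bar) and the median of all mRNAs tested (dotted line, -0.02). Orange points are higher and blue points lower in both old livers than in both young livers. Names are given for members, and for other genes whose ages did not overlap, beyond 0.8 in either direction. PTPN1 (1.56) and GRB14 (-1.77) lie farthest out, and none passed the adjusted threshold of limma.

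Among receptors and signalling below IGF1R and INSR, 14 of 17 genes had an identifier and 13 were tested. There were 3 higher and 3 lower in both old livers, beside 24.4% and 25.0% of all mRNAs tested. The list median was 0.20, beside -0.02 over all mRNAs. GRB14, an adaptor that inhibits insulin receptor signalling, was at 11.5 and 13.8 CPM in young sows and 2.05 and 4.25 in old sows (1059, 1192, 126 and 305 reads). The young mean was 4.02-fold the old mean, and the fitted difference came to -1.77 (standard error 0.34, unadjusted p = 0.0110, adjusted p = 0.230, limma). The adjusted p-value of GRB14 was 0.111 in the exact test of edgeR, 0.277 in the quasi-likelihood test and 0.0304 in the Wald test of DESeq2. PIK3CA, the catalytic subunit of phosphoinositide 3-kinase, was at 2.17 and 1.57 in young sows and 0.796 and 0.794 in old sows (-0.67, standard error 0.16, adjusted p = 0.255, limma). IRS1, the adaptor that docks on activated IGF1R and INSR, had the opposite order, with 0.915 and 1.50 in young sows and 2.34 and 4.07 in old sows (0.91, standard error 0.30, adjusted p = 0.318, limma). FOXO3, a transcription factor held in check by insulin and IGF signalling, was at 2.74 and 1.07 in young sows and 3.77 and 5.28 in old sows (0.97, standard error 0.38, adjusted p = 0.371, limma). INSR, the insulin receptor, overlapped between ages at 4.26 and 7.98 in young sows and 3.44 and 5.46 in old sows.

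Of the 8 genes in the list of IGF2 mRNA binders and regulators of the IGF2 locus, 4 had an identifier and 2 were tested. IGF2BP2, which binds IGF2 mRNA, was at 1.83 and 0.035 CPM in young sows and at 0.341 and 0.529 in old sows (168, 3, 21 and 38 reads), so the old livers lay between the young ones. PLAGL1, an imprinted transcription factor, had 0 reads in each young liver and 3 in each old liver, which is within the limit of detection.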

How the data were processed

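Liver RNA of 4 sows was sequenced after rRNA depletion. Alignment to Sscrofa10.2 by the authors used TopHat2 2.0.14, and assembly StringTie 1.2.3. The deposited values, which the authors name TPM from Salmon 0.6.0, are treated as CPM, because in each library 100% of the values above 0 lay within 0.0011 CPM of a whole multiple of 1 step, and dividing by it gave whole reads. The library total behind the CPM is not given in the sources used here. Gene symbols were available for 11654 of 21607 identifiers. The members, the lists of other axis genes and markers and the tests were chosen with earlier results of these data known.

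mRNAs above 0 in at least 2 of 4 libraries were tested with limma 3.58.1 on log2(CPM + 1), with Benjamini-Hochberg adjustment over all 16898. The exact and quasi-likelihood tests of edgeR 4.0.16 and the Wald test of DESeq2 1.42.0 were run on recovered reads as alternatives, in R 4.3.3. Python 3.11.15, scipy 1.17.1 and matplotlib 3.10.9 were also used. The scripts were tested on simulated counts. Named genes were all members and, per list, up to 2 genes in each direction that did not overlap between ages and had a mean of at least 1 CPM, and the 5 mRNAs most like IGF1. Others were named after their values were seen (JAK2, SOCS1, IGFBP5, IGFBP6, IGFBPL1, PAPPA, INSR, IGF2BP2, PLAGL1, PCK1, APOA2, TTR, TF, TAT, ALB, CPS1, KDR, PECAM1 and LYVE1). Of 5 within-library ratios planned, 2 were computed, as the others need unmatched genes. The lncRNA, circRNA and miRNA values were not used here, and no sequence or coordinate is given.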

Additional observations from a re-analysis of the deposited data

How the results depend on the processing

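Other pseudocounts, filters, scalings, variance models and tests, and leaving out 1 library, were tried. DESeq2's Wald test called 1 member and 1 other gene of the axis, where limma called 0 of each. The other settings called 0 of each. Among these, the exact test of edgeR called 3.16% of all mRNAs, centring on hepatocyte markers 108 higher and 56 lower, and a mean of at least 1 CPM 1 higher and 1 lower, while the others called no mRNA at all, so that their 0 is not particular to the axis. The median log2 fold change of the members (0.49) was 1.01 with each of the exact, quasi-likelihood and Wald tests and 0.72 with a pseudocount of 0.1. Over all mRNAs the median was 0.12, 0.12 and 0.10 with those tests and -0.03 with that pseudocount. Those tests do not add 1 CPM, and adding it understates the change of low genes such as IGFALS. The median of the members ranged from -0.11 (without old replicate 2) to 0.39 with 1 library left out. With 1 library left out, an age is a single liver, assumed to vary like the others. Then GHR ranged from -0.91 to 0.0697, IGF1 from -0.29 to 2.80, IGF1R from -0.0308 to 0.0895, IGFBP1 from -0.56 to 2.66 and STAT5B from -0.21 to 0.22, each changing sign, and IGFALS from 0.81 to 1.08. The difference between ages in the balance of IGF1 to IGFBP1 (0.20) ranged from -2.93 to 3.33 and that of IGF1 to GHR (1.67) from -0.36 to 3.70. With libraries centred on hepatocyte markers, an alternative chosen after seeing the data, IGF1R was -0.11 and STAT5B -0.13, while the median of all mRNAs moved from -0.02 to -0.16. IGFALS was 0.81 with that centring, and its unadjusted p-value went from 0.00689 to 0.206 (limma). The centring shifts every mRNA of a library by the same amount on log2(CPM + 1), also those near 0 CPM. It thereby adds the same spread between livers to each of them, so that p-value is not read as a result about IGFALS. A mean of at least 1 CPM left out IGF1R and IGFALS.

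Replicate numbers are shared between ages, but the sows were unrelated, and same-numbered livers' deviations correlated at 0.0902 across genes. With the replicate block, which cannot alter a fold change in this balanced design, limma called 0 members, 0 other axis genes and 0 of all mRNAs. Members with an unadjusted p-value under 0.05 went from 1 to 2, as that of IGFBP1 (log2 fold change 1.05) went from 0.592 to 0.00992 (adjusted p = 0.344, limma). The share of all mRNAs under 0.05 with the block is not given here, so these counts are not read as a result about the members.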
